A study of Mus musculus with 23 samples.

Results

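The genes described here are 8 whose products work inside the cell: Coa3, Nfu1, Pih1d1, Pttg1, Blcap, Nnat, Med1 and Snx14. They were picked because their messenger RNA levels differed between a pair of mouse lines bred for opposite responses to methamphetamine. The array annotation listed 9 probe sets for them, of 12422 probe sets tested in all, with a single probe set for each gene except Pttg1. Because the line difference chose the genes, it is given below as a description with no test. The differences after methamphetamine, the interaction of line with injection and the variation of the genes together within groups did not enter the choice and were tested.

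Tissue came from the nucleus accumbens, the part of the ventral striatum that dopamine neurons of the midbrain supply densely, and its messenger RNA was measured on 23 Affymetrix arrays. HMACT mice came from selective breeding for a strong acute response to methamphetamine (MA), a dopamine-releasing stimulant, and LMACT mice from breeding for a weak one. Both started from C57BL/6J x DBA/2J animals, and all mice received 1 challenge injection, of MA at 2 mg/kg or of saline (SAL), 1 h before the tissue was taken. Each array held a 4-way tissue pool. There were 6 HMACT pools after MA with mean ages of 77.25 to 150 days (median 114.75) and 6 HMACT pools after SAL with ages of 77.25 to 154 days (median 112). LMACT had 5 pools after MA, aged 60 to 114.75 days (median 68.75), and 6 pools after SAL, aged 61.5 to 127.5 days (median 67.1). The labels name 1 line in each direction, so selection for the MA response and other inherited differences between these lines cannot be told apart.

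Coa3 and Nfu1 act in mitochondria. The COA3 protein lies in the inner membrane, where it takes part in making the COX1 subunit and assembling it into cytochrome c oxidase, the last complex of the respiratory chain. NFU1 passes iron-sulphur clusters to mitochondrial enzymes, among them those that need lipoic acid. PIH1D1 belongs to R2TP, a partner of the HSP90 chaperone that helps large protein complexes to assemble. PTTG1 is securin, which holds the protease separase inactive until sister chromatids part at anaphase. MED1 is the subunit through which the Mediator complex meets nuclear hormone receptors. SNX14 is a sorting nexin of the endoplasmic reticulum with a part in lipid handling, and its loss in humans causes a cerebellar ataxia. Nnat, an imprinted gene expressed from the paternal copy, encodes neuronatin, a small membrane protein of the endoplasmic reticulum. It lies within an intron of Blcap, which encodes a small conserved protein and is imprinted in mouse brain.

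Coa3, Pttg1 and Med1 are on chromosome 11, Nfu1 on 6, Pih1d1 on 7, Snx14 on 9, and Blcap and Nnat on 2 in the RefSeq annotation of GRCm38.p6. In that annotation the span of Nnat lies inside that of Blcap, on the opposite strand. The 250 bases before the annotated start are shown for 4 of the genes. Coa3 is a gene with higher values in HMACT, Snx14 is one with lower values, and Blcap and Nnat are the overlapping pair. All are from RefSeq, 5′ to 3′ on the strand of the gene, with matches to the motifs named after them in capitals.
Coa3, GRCm38.p6 chr11:101278949-101279198, minus strand: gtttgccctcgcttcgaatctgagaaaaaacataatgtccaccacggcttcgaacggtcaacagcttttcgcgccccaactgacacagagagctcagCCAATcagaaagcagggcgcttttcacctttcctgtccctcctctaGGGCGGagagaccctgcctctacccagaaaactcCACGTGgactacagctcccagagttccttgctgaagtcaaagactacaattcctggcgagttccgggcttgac
Snx14, GRCm38.p6 chr9:88438930-88439179, minus strand: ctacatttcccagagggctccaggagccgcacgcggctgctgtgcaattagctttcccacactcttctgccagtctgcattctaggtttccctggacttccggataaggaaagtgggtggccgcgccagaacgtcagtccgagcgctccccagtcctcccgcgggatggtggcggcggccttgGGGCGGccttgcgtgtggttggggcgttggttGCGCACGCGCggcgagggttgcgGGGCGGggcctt
Blcap, GRCm38.p6 chr2:157566362-157566611, minus strand: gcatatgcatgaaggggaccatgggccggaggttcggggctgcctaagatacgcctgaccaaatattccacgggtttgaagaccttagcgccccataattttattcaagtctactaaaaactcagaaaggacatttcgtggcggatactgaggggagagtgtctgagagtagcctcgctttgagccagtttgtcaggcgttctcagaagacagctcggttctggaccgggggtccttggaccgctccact
Nnat, GRCm38.p6 chr2:157559828-157560077, plus strand: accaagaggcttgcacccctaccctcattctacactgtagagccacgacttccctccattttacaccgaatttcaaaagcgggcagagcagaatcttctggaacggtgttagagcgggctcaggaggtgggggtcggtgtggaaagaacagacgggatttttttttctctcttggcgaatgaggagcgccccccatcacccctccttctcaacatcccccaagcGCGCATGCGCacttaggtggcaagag

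Both strands were searched for the E-box CACGTG, the GC box GGGCGG, the CCAAT box CCAAT, the TATA box TATAAA, the cAMP response element TGACGTCA and the palindromic NRF1 motif. The window of Coa3 held an E-box 73 bases, a GC box 107 bases and a CCAAT box 153 bases before the start. Snx14 had GC boxes 67 and 12 bases before its start and an NRF1 match at 35 bases, read on the opposite strand only. In Nnat an NRF1 match began 26 bases before the start and read as a match on both strands. The window of Blcap held none of these letters. Among 32851 promoter windows of the same length, 6.02% held the E-box, 32.7% the GC box, 33.8% the CCAAT box, 12.4% the TATA box, 1.55% the cAMP response element and 3.74% the NRF1 motif. No motif was found in all 4 windows, though Coa3 and Snx14 both held a GC box and Snx14 and Nnat both an NRF1 match. GC content was 53.6% for Coa3, 66.0% for Snx14, 52.8% for Blcap and 54.8% for Nnat, against a median of 52.4% over all windows. A match is a stretch of letters and not a measured binding site.

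Deposited values run on a log2 scale from 2.23 to 16.4, and 33.0% of them equal the lowest value, so values under 2.3 were taken as a floor. For the members, 8 of the 9 probe sets lay above it. The exception was one of the Pttg1 pair, which lay at the floor on every array and is left out of the values below. On the first axis of variation within groups, which held 60.6% of the residual variance over 6831 probe sets, 3 arrays stood apart: HMACT MA replicate 3 (score 62.1), HMACT SAL replicate 3 (54.1) and LMACT MA replicate 4 (64.5), against a highest score of 28.2 among the other 20. Mean line differences and some other results are given with and without them. Of the striatal neuron markers, Penk, Tac1, Drd2 and Pdyn were above the floor and Rgs9 was at the floor. HMACT pools were older than LMACT pools, as their ages above show, and 15 pools (6 HMACT, 9 LMACT) were under 100 days.

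Over all 12422 probe sets, 17 (0.137%) passed the limma test of the line difference as a mean of injections, 9 of them (0.0725%) higher and 8 (0.0644%) lower in HMACT. The members were drawn from the genes with such differences, and nothing is read from how many of them are among those 17. Coa3, Pih1d1, Pttg1 and Nnat differed by over 1 log2 unit, the other 4 by 0.50 to 0.66. Probe sequences were not analysed here, so whether C57BL/6J and DBA/2J bases differ under a probe, which could change the signal without a change in messenger RNA, was not tested for any of them. In bulk tissue, fewer cells of a type and less RNA per cell cannot be told apart.

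Coa3 was higher in HMACT. After MA its lowest, median and highest log2 values were 9.31, 9.73 and 10.99 in HMACT, and in LMACT the 5 values were 7.71, 8.77, 8.82, 9.04 and 9.19. After SAL they were 8.97, 10.33 and 11.06 in HMACT, against 8.25, 8.59 and 8.86 in LMACT. The lines did not overlap after either injection. Pooled over injections they overlapped by 0.22 log2 units, since HMACT SAL replicate 1 lay below 2 LMACT MA pools. The highest value of each injection group in HMACT came from an array that stands apart. The HMACT minus LMACT difference as a mean of injections was 1.44 (SE 0.241), or 2.71-fold, with 1.21 (SE 0.350) after MA and 1.66 (SE 0.333) after SAL.

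Nfu1, the other mitochondrial gene, had the smallest mean difference among the 6 genes higher in HMACT. After MA its log2 values in HMACT were 7.10, 7.50 and 7.56 (lowest, median, highest), and the 5 LMACT pools had 6.31, 6.42, 6.81, 6.86 and 7.20. After SAL HMACT had 7.17, 7.56 and 7.67, against 6.91, 7.17 and 7.53 in LMACT. Values of the lines overlapped after both injections, and 7 of 12 HMACT pools lay within the LMACT range. The mean difference between the lines was 0.50 (SE 0.103), with 0.68 (SE 0.149) after MA and 0.33 (SE 0.142) after SAL.

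Pih1d1, the co-chaperone gene, showed its widest gap after SAL. There the 6 HMACT pools ran from 8.88 to 9.92 (median 9.25) and the 6 LMACT pools from 7.25 to 7.69 (median 7.46), which leaves 1.19 log2 units between the lines. After MA, HMACT pools ran from 8.39 to 10.63 (median 8.96) and the 5 LMACT pools had 7.11, 7.87, 7.91, 8.63 and 8.94, so the lines overlapped there. The highest value in HMACT and the highest in LMACT were those of arrays that stand apart. The line difference was 1.86 (SE 0.333) after SAL, 1.16 (SE 0.349) after MA and 1.51 (SE 0.241) as a mean.

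Pttg1, the securin gene, was measured by a probe set whose name marks it as able to detect more than 1 transcript. After MA its values were 8.08, 8.43 and 9.10 in HMACT (lowest, median, highest) and 5.99, 6.93, 7.02, 7.46 and 7.94 in the 5 LMACT pools, with no overlap. After SAL they were 7.81, 8.46 and 9.55 in HMACT, against 6.35, 6.67 and 7.94 in LMACT, with 2 HMACT pools and 1 LMACT pool in the overlap. LMACT was spread widely, with an SD of 0.669 over 11 pools, against 0.553 over 12 HMACT pools. The mean difference was 1.51 (SE 0.266), or 2.84-fold.

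Blcap was the single member whose lines did not overlap over all 23 arrays. After MA its values were 10.65, 10.82 and 11.26 in HMACT (lowest, median, highest), and LMACT had 9.87, 10.30, 10.38, 10.39 and 10.59. After SAL HMACT had 10.59, 10.87 and 11.20, against 10.31, 10.46 and 10.54 in LMACT. The lowest HMACT pool lay 0.0059 log2 units above the highest LMACT pool, a gap far smaller than the SD of 0.218 among HMACT pools. The line difference as a mean was 0.53 (SE 0.0879), or 1.44-fold.

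Nnat, inside Blcap on the other strand, was also higher in HMACT, by a difference whose size after SAL rested on a single array. After MA it had 8.17, 8.42 and 8.64 in HMACT (lowest, median, highest) and 6.41, 6.70, 7.15, 7.19 and 7.49 in LMACT, so the lines were 0.68 log2 units apart. After SAL it had 7.58, 8.17 and 10.70 in HMACT, against 7.31, 7.55 and 7.75 in LMACT. The value of 10.70 belongs to HMACT SAL replicate 3, which stands apart, and the next highest HMACT pool after SAL had 8.33. The line difference after SAL was 0.94 (SE 0.361) with all arrays and 0.49 without the arrays that stand apart. After MA it was 1.41 (SE 0.378) with all arrays and 1.50 without them. The probe set of Nnat also has a name that marks more than 1 possible transcript. Whether the overlap of the genes affects the separate values of this pair was not tested.

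Med1, the Mediator subunit, was lower in HMACT. After MA its values were 7.04, 7.43 and 7.58 in HMACT (lowest, median, highest), and LMACT had 7.61, 7.89, 7.95, 7.97 and 8.06. After SAL HMACT had 6.37, 7.36 and 7.68, against 7.70, 7.94 and 8.27 in LMACT. The lines did not overlap within either injection, by 0.037 log2 units after MA and 0.022 after SAL, and overlapped by 1 pool of each line over all arrays. The lowest value after each injection came from an HMACT array that stands apart. The mean difference was -0.66 (SE 0.123), and -0.54 without the arrays that stand apart.

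Snx14, the sorting nexin gene, was also lower in HMACT. After MA it had 5.43, 5.89 and 6.05 in HMACT (lowest, median, highest) and 6.13, 6.22, 6.26, 6.47 and 6.83 in LMACT. After SAL it had 5.43, 5.70 and 6.02 in HMACT, against 6.02, 6.19 and 6.37 in LMACT. The lines were separate after MA and overlapped by 1 pool of each after SAL. The mean difference was -0.50 (SE 0.0949), which is 1.42-fold lower in HMACT.

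**Figure D1:**
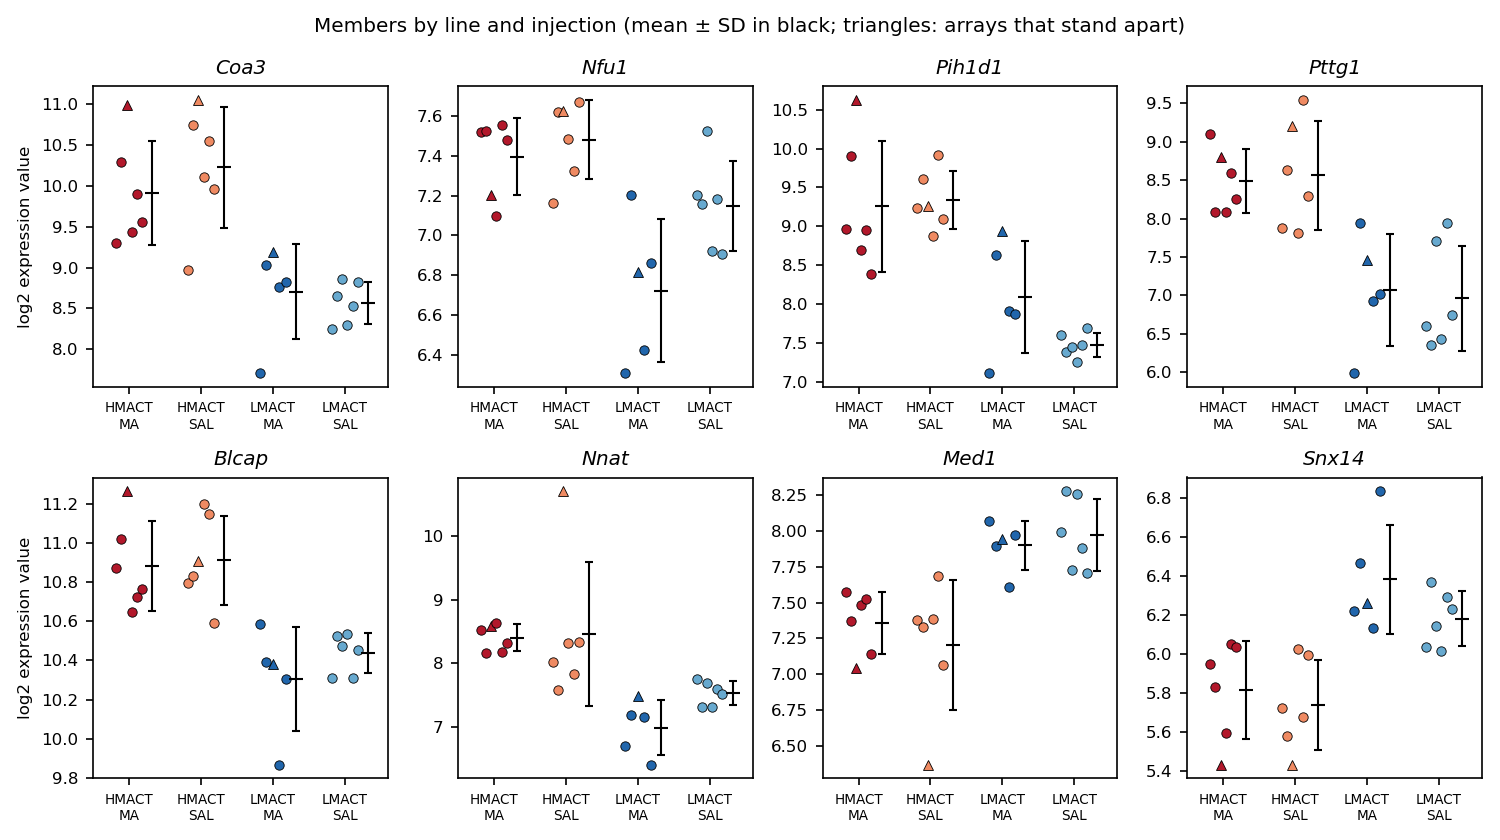
Log2 expression value of each member (vertical axis, a separate scale for each gene) in the 23 pools, by line and injection, with the group mean and SD in black (n = 6, 6, 5 and 6 from left to right). Triangles are the 3 arrays that stand apart. HMACT lies above LMACT for 6 genes and below it for Med1 and Snx14, and the Nnat value of 10.70 lies far from its group.

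Counted over the 9 probe sets, the lines did not overlap for 1 over all arrays (Blcap), for 6 after MA (Coa3, Pttg1, Blcap, Nnat, Med1 and Snx14) and for 4 after SAL (Coa3, Pih1d1, Blcap and Med1). Among all 12422 probe sets such separation held for 4 (0.0322%) over all arrays, 52 (0.419%) after MA and 190 (1.53%) after SAL. Without the arrays that stand apart, Blcap was again the single member with separate lines, against 14 probe sets (0.113%) in all. Since the members were chosen on this contrast, the comparison with the background describes the choice.

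The labels name 4 chip lots, of 15, 4, 3 and 1 arrays. Across subsets by chip lot, by age and without the arrays that stand apart, the line differences varied in size and kept their direction. All 8 genes differed in the same direction in the lot of 15 arrays, the lot of 4 and the lot of 3. They also did so in the 15 pools under 100 days, the 8 pools over 100 days (6 HMACT, 2 LMACT) and the 20 arrays that do not stand apart. The lot of 4 held 2 pools of each line, and the lot of 3 held 2 HMACT pools and 1 LMACT pool. In the lot of 3 Snx14 differed by -0.15, with its LMACT pool between the 2 HMACT pools. In the lot of 4 Blcap differed by 0.06 after MA, with 1 pool of each line. In the lot of 15 arrays the difference of means was 1.38 for Coa3, 0.43 for Nfu1, 1.58 for Pih1d1, 1.26 for Pttg1, 0.58 for Blcap, 1.20 for Nnat, -0.67 for Med1 and -0.56 for Snx14. Refitted without the arrays that stand apart, it was 1.31 for Coa3, 0.52 for Nfu1, 1.49 for Pih1d1, 1.46 for Pttg1, 0.50 for Blcap, 0.99 for Nnat, -0.54 for Med1 and -0.45 for Snx14. These subsets are parts of the arrays on which the genes were chosen. In the lot of 3 together with the lone array of another lot, Pih1d1 differed by 0.019 after MA, with 1 pool of each line, of which the LMACT pool stands apart.

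Older and younger pools were also compared within each line. In HMACT, the 6 pools over 100 days had a mean Pih1d1 value of 9.60 ± 0.60 and the 6 younger pools 8.99 ± 0.52 (SD), a difference of 0.61. In LMACT the 2 older pools averaged 7.78 ± 0.12 and the 9 younger ones 7.75 ± 0.63. Snx14 was lower in the older HMACT pools (5.66 ± 0.21, against 5.90 ± 0.20 in the younger) and higher in the older LMACT pools (6.53 ± 0.43, against 6.22 ± 0.15 in the younger). The older minus younger difference of Nnat was 0.33 in HMACT and -0.39 in LMACT, and that of Coa3 0.31 in HMACT and 0.23 in LMACT. The older HMACT pools include both HMACT arrays that stand apart, at 149.75 and 154 days. These had the highest Coa3 values (10.99 and 11.06), and the second had the far Nnat value of 10.70. The younger LMACT pools include the LMACT array that stands apart. Older and younger pools were not compared without these arrays, so the sizes and signs above may rest on them. In the pools under 100 days the line difference of Snx14 was -0.32, and that of Pih1d1 was 1.20 as a mean and 0.53 after MA. With mean age as a covariate the line differences were 1.27 (SE 0.290) for Coa3, 0.53 (SE 0.127) for Nfu1, 1.28 (SE 0.281) for Pih1d1, 1.44 (SE 0.327) for Pttg1, 0.49 (SE 0.107) for Blcap, 1.06 (SE 0.320) for Nnat, -0.53 (SE 0.144) for Med1 and -0.46 (SE 0.115) for Snx14. Each of these kept its sign.

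**Figure D2:**
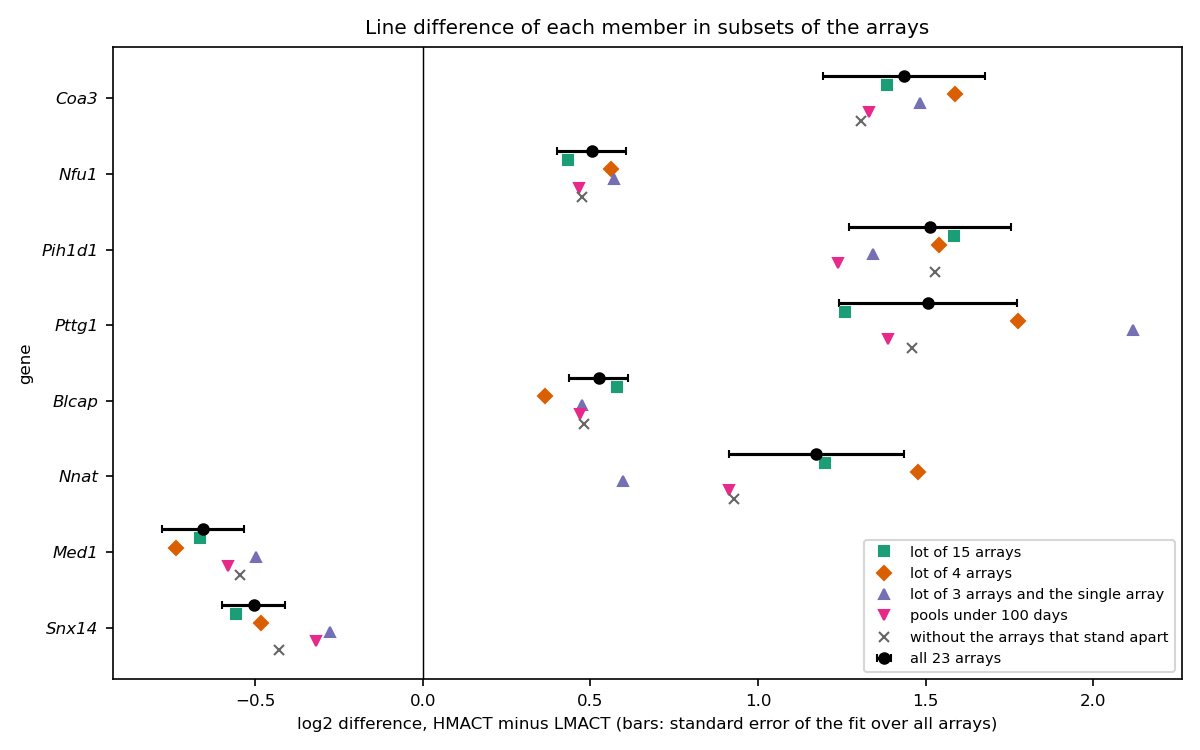
HMACT minus LMACT difference of each gene on the log2 scale. Black circles with bars are the fit over all 23 arrays with its standard error, and the other symbols are differences of means within chip lots, in pools under 100 days and without the arrays that stand apart. Every symbol lies on the same side of 0 as its black circle, with Nnat at 0.60 in the lot of 3 arrays joined with the single array.

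Measures of other cell types and of RNA were set beside the line differences. Of the oligodendrocyte markers, 5 of 6 were measured, Cnp was at the floor, and 0 of the other 4 had a positive and 4 a negative line difference (median -0.26). Their summed level, as a log2 value, differed by -0.57 (HMACT minus LMACT). After MA it ran from 12.04 to 13.11 in HMACT and from 13.125 to 13.55 in LMACT, so these ranges did not overlap. After SAL it ran from 12.4 to 13.1 in HMACT and from 12.8 to 13.4 in LMACT. None of these markers passed the test, and the one with the smallest p was Mobp, a myelin protein gene (-0.80, SE 0.194, limma adjusted p = 0.134). Median line differences of the other marker lists ran from -0.11 for astrocytes to 0.38 for microglia, and 0 of their genes passed. The microglial markers were mixed, with 4 positive and 2 negative differences. Their summed level differed by -0.07 (HMACT minus LMACT), opposite in sign to their median. The 3′ minus 5′ difference of the control probe sets averaged 2.23 ± 0.12 in HMACT (n = 12) and 2.35 ± 0.33 in LMACT (n = 11), with a highest value of 3.30 in a LMACT MA pool. The part of age, of these cell type markers and of RNA quality in the line differences was not tested.

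The question for the injection was whether the 8 genes differed 1 h after MA. None of the 9 member probe sets passed in HMACT, in LMACT, as a mean of the lines or in the interaction. Over all 12422 probe sets, limma called 2 (0.0161%) as a mean of the lines, 1 (0.00805%) in HMACT, 0 (0%) in LMACT and 0 (0%) in the interaction. At an unadjusted p under 0.05 there were 155, 180, 370 and 270 probe sets in those comparisons, and of the members 1 as a mean of the lines and 1 in LMACT, both Nfu1.

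Nfu1 had the smallest p of the members. In LMACT its mean was 6.72 ± 0.36 after MA (n = 5) and 7.15 ± 0.23 after SAL (n = 6), a difference of -0.43 with a 95% interval from -0.74 to -0.12. Of the 5 MA pools, 4 lay below the SAL mean. The unadjusted p from limma was 0.0096 and the adjusted p was 1.0. In HMACT the difference was -0.09 (interval -0.38 to 0.21), with 3 of 6 MA pools below the SAL mean. The interaction was 0.34 (interval -0.09 to 0.77), at a limma adjusted p of 0.884.

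Nnat differed by -0.54 in LMACT (interval -1.33 to 0.25), where it averaged 6.99 ± 0.43 after MA and 7.53 ± 0.19 after SAL, and all 5 MA pools lay below the SAL mean. In HMACT it averaged 8.40 ± 0.21 after MA and 8.46 ± 1.13 after SAL, a difference of -0.06 (interval -0.82 to 0.69), and this direction turned without the arrays that stand apart (0.34, SE 0.171). Without those arrays the LMACT difference was -0.67 (SE 0.175, limma adjusted p = 0.712) and the interaction 1.01 (SE 0.245). The interaction then had an unadjusted limma p of 7.5e-04 and an adjusted p of 0.961, while with all arrays it was 0.48 (SE 0.523) at an adjusted p of 0.884. A difference between the lines in the response of Nnat to MA was therefore not called in either fit.

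For Pih1d1 the values after MA lay on different sides in the lines. In LMACT the mean was 8.09 ± 0.72 after MA and 7.48 ± 0.16 after SAL, a difference of 0.62 (interval -0.11 to 1.35), with 4 of 5 MA pools above the SAL mean. In HMACT the mean was 9.26 ± 0.84 after MA and 9.34 ± 0.37 after SAL, a difference of -0.08 (interval -0.77 to 0.62). The interaction was -0.69 (SE 0.483) at a limma adjusted p of 0.884. In the pools under 100 days it was -1.34 (SE 0.528) at an adjusted p of 0.720. Without the arrays that stand apart the LMACT difference was 0.40 (SE 0.289).

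Coa3 had 9.91 ± 0.64 after MA and 10.23 ± 0.74 after SAL in HMACT, a difference of -0.32 (interval -1.01 to 0.38). In LMACT it had 8.70 ± 0.58 after MA and 8.57 ± 0.26 after SAL, a difference of 0.13 (interval -0.60 to 0.86). For Pttg1, Blcap, Med1 and Snx14, the MA minus SAL difference lay between -0.13 and 0.20 in either line, and each interval included 0. Their widths differ with the spread of the genes: the interval of Blcap in HMACT ran from -0.28 to 0.22, and that of Pttg1 in LMACT from -0.70 to 0.91. Changes of up to these sizes could not be told from 0 with 5 or 6 pools a group. Over the alternative settings, the smallest limma adjusted p in any MA comparison or interaction was 0.237, for the interaction of Nfu1 with median centring, and for the other genes it was between 0.374 and 0.874.

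**Figure D3:**
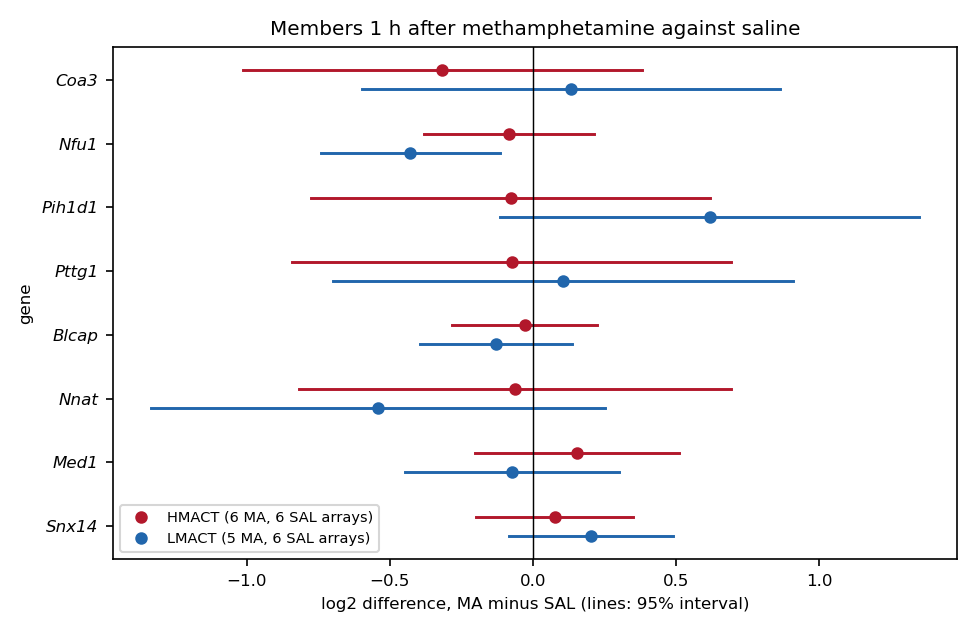
MA minus SAL difference of each gene 1 h after the injection, on the log2 scale, in HMACT (red) and LMACT (blue), with 95% intervals from the fit over all probe sets. All intervals include 0 except that of Nfu1 in LMACT, which ran from -0.74 to -0.12 and did not pass after adjustment.

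Variation within groups was compared next, with the group means removed so that neither line nor injection enters. Over the 20 arrays that do not stand apart, 28 pairs of the 8 genes were tested. The permutations moved residuals freely across groups and made no allowance for the group means removed. Their p-values may therefore be too small, and a pass close to the threshold is uncertain. A single pair passed: Coa3 and Pih1d1, with a Pearson r of 0.661 (permutation p = 0.0016, adjusted p = 0.0448) and a Spearman rho of 0.687 (permutation p = 0.00114, adjusted p = 0.0319). Without the 2 arrays farthest from the median of Coa3, r was 0.691. Within the largest lot (13 arrays) r of this pair was 0.519 (permutation p = 0.0687, adjusted p = 0.515), and 0 of the 28 pairs passed there. The other lots hold too few arrays for a value. With all 23 arrays 2 pairs passed, Coa3 with Pih1d1 (0.712) and Med1 with Nnat (-0.748), and the r of Med1 with Nnat was -0.388 without the 2 arrays farthest from the median of Med1. Coa3, Nfu1, Pih1d1 and Pttg1 had positive r in all 6 of their pairs, from 0.397 to 0.661; these 4 were grouped after the values were seen. Without the 2 arrays farthest from the median of the first gene, r ran from 0.058 (Nfu1 with Pih1d1) to 0.691. Within the largest lot it ran from 0.074 (Pih1d1 with Pttg1) to 0.618 (Nfu1 with Pttg1). LMACT MA replicate 2 had the lowest LMACT value of all 4 genes. The overlapping genes Blcap and Nnat, both higher in HMACT, had an r of -0.333 within groups (permutation p = 0.154, adjusted p = 0.43) and a rho of -0.278, and r was -0.086 without the 2 arrays farthest from the median of Blcap. The median r of all 28 pairs was 0.083.

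**Figure D4:**
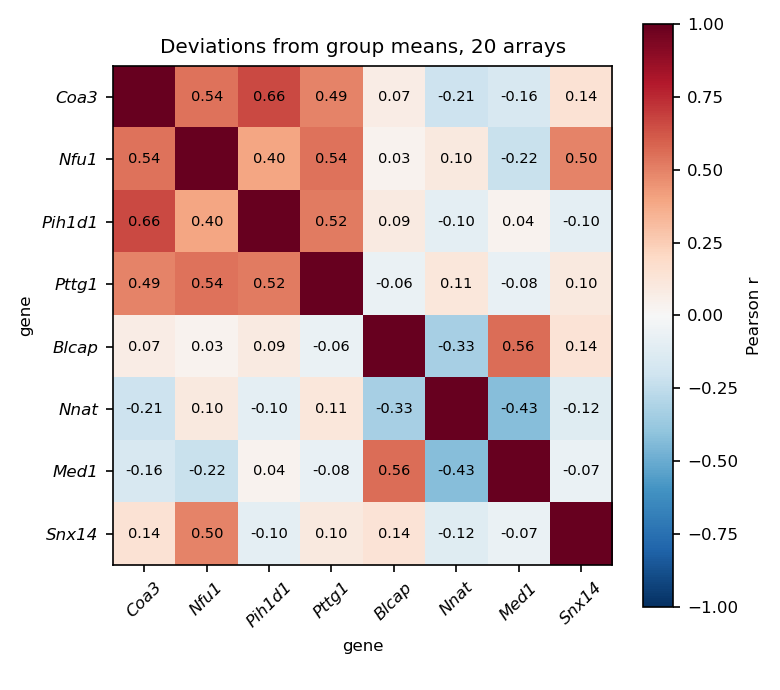
Pearson r of each pair of genes over the 20 arrays that do not stand apart, after the mean of each line and injection group was removed. Red is positive and blue negative, and the diagonal is each gene with itself. Coa3, Nfu1, Pih1d1 and Pttg1 form a block of positive values, of which that of Coa3 with Pih1d1 (0.66) passed the test. That test made no allowance for the group means removed, so the pass is uncertain. Without the 2 arrays farthest from the median of the first gene, values in this block ran from 0.058 to 0.691.

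For each gene the probe set with the most similar values over all 23 arrays was found among 5908 probe sets above the floor on every array. Pih1d1 (r 0.887) and Pttg1 (r 0.832) were most like Coa3. Coa3 was most like Macroh2a1, a histone variant gene (0.898). The closest gene to Nfu1 was 1810009A15Rik (0.803), and to Med1 it was Glo1, which encodes glyoxalase I (0.874). For Snx14 it was the kinase gene Riok1 (0.842), for Blcap Tox4 (0.915) and for Nnat Tle5, of the Groucho family (0.938). Riok1 lay near the floor, with means of 2.65 in HMACT and 2.74 in LMACT. Over the 20 arrays that do not stand apart, a comparison added after seeing the data, Coa3 was again the closest to Pih1d1 (0.897), Tox4 to Blcap (0.911) and Tle5 to Nnat (0.850). For the other 5 members another gene was then closest: Ascc1 for Coa3 (0.901) and Pttg1 (0.865), Cplx1 for Nfu1 (0.861), Zfp239 for Med1 (0.850) and Syncrip for Snx14 (0.849). These r values include the line difference and are a description of the arrays.

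The pathways of the members were then examined through their other genes, in lists chosen with earlier results of these data known. In the cytochrome c oxidase assembly list of Coa3, 10 other genes were measured and 8 were above the floor, of which 5 had a positive and 3 a negative line difference, with a median of 0.07. The one with the smallest p was Smim20, another assembly factor of that enzyme (0.83, SE 0.283, limma adjusted p = 0.337). Its means were 8.96 ± 0.31 in HMACT and 7.27 ± 0.71 in LMACT after MA, and 8.53 ± 1.02 in HMACT and 8.57 ± 0.48 in LMACT after SAL. Of the iron-sulphur cluster genes beside Nfu1, 13 were measured and 12 were above the floor, 9 positive and 3 negative, with a median of 0.05. Ciao2b, a cytosolic cluster targeting gene, had 0.49 (SE 0.186, adjusted p = 0.385).

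R2TP and prefoldin-like co-chaperone genes beside Pih1d1 numbered 9, all above the floor, with 5 positive and 4 negative differences and a median of 0.19. Rpap3, which binds PIH1D1 in R2TP, had -0.24 (SE 0.083, limma adjusted p = 0.341), opposite in sign to Pih1d1. The securin, separase, cohesin and anaphase list of Pttg1 had 25 other genes measured and 22 above the floor, 7 positive and 15 negative, with a median of -0.05. Nipbl, which loads cohesin, had -1.20 (SE 0.393, adjusted p = 0.305). Pttg1 thus lay on the other side of 0 from most genes above the floor in its list.

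In the imprinted list of Blcap and Nnat, 31 other genes were measured and 26 were above the floor, 14 positive and 12 negative, with a median of 0.007. The smallest p belonged to Dcn, the proteoglycan decorin (-0.38, SE 0.128, limma adjusted p = 0.320). Mediator genes beside Med1 numbered 13, all above the floor, with 7 positive and 6 negative differences and a median of 0.11. Ccnc, the cyclin of the Mediator kinase module, had -1.47 (SE 0.543, adjusted p = 0.373). Among sorting nexins beside Snx14, 13 were measured and 12 were above the floor, 4 positive and 8 negative, with a median of -0.13. Snx13, a relative of SNX14 with the same domain types, had -0.12 (SE 0.0332, adjusted p = 0.211) at levels near the floor.

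Across these 7 lists, 0 of the 114 other genes passed the limma test in the line difference or in any other of the 7 comparisons. At an unadjusted p under 0.05 there were 21 (18.4%) in the line difference and 2 (1.75%) after MA as a mean of the lines, against 1334 (10.7%) and 155 (1.25%) of all 12422 probe sets. These are unlike sets: the lists hold the brightest probe set of each gene, while 4124 of the 12422 lay at the floor. Nothing is therefore read from the higher shares in the lists. Over all probe sets above the floor, 4319 had a positive and 3955 a negative line difference, with a median of 0.0051. After MA as a mean of the lines, 3964 were positive and 4314 negative, with a median of -0.0034. In that comparison the list medians ran from -0.065 for Mediator to -0.006 for the R2TP list.

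**Figure D5:**
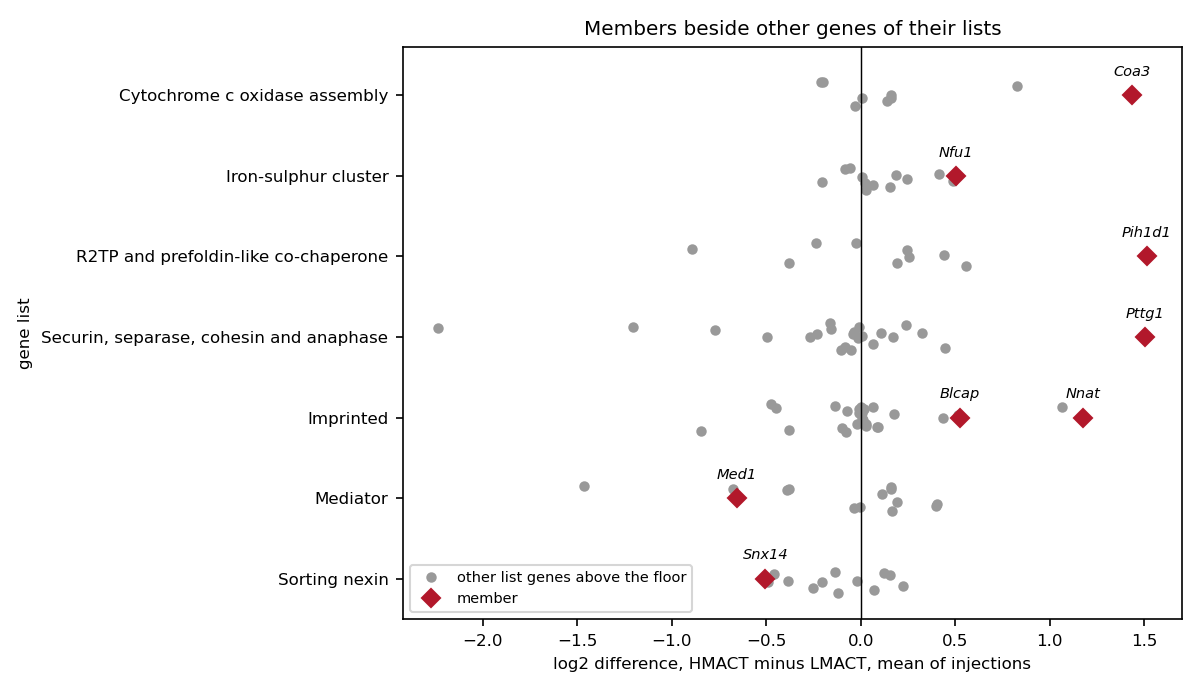
HMACT minus LMACT difference (log2, mean of injections) of each member (red diamonds) and of the other genes above the floor in its list (grey circles; vertical scatter has no meaning). Coa3, Nfu1, Pih1d1, Pttg1 and Nnat lie beyond the other genes of their lists on the positive side and Snx14 on the negative side. Blcap and Med1 lie among the other genes of theirs. The margin to the nearest list gene is less than the member's own standard error for Nfu1 (0.50 against 0.49), Snx14 (-0.50 against -0.49) and Nnat (1.17 against 1.07). Members were chosen on this difference.

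Neighbours on the chromosome were compared because the lines descend from a cross, in which blocks of a chromosome are inherited together. For each member the nearest 10 measured genes on each side were taken in the RefSeq order. Of the 140 different neighbours, 0 passed the limma test of the line difference and 20 (14.3%) had an unadjusted p under 0.05, against 10.7% of all probe sets. Neighbours were also taken as the brightest probe set of each gene, so these shares too come from unlike sets. Of the neighbours above the floor, 10 of 14 for Coa3, 9 of 16 for Nfu1, 9 of 12 for Pih1d1, 2 of 12 for Pttg1, 7 of 16 for Blcap, 6 of 16 for Nnat, 7 of 19 for Med1 and 11 of 17 for Snx14 differed in the direction of the member. Their median differences ran from -0.24 around Pttg1 to 0.16 around Med1. Around Pttg1, Blcap, Nnat and Med1 most of these neighbours thus had the opposite sign to the member. The largest neighbour values were 0.91 for Rnd2 near Coa3 and -0.95 for Top1 near Blcap and Nnat.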

How the data were processed

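Messenger RNA was measured in 23 mouse nucleus accumbens pools, 1 Affymetrix array each. The authors deposited 1 log2 value per probe set and array; the scale was inferred from the values, which had been normalized between arrays by a method that the labels do not give. The submitters' processing notes list R 2.7.1. Of 12488 probe sets 66 were controls and 12422 were tested. Of all, 10833 were listed with 1 gene, 396 with several and 1193 not listed, and 10817 matched the RefSeq table of GRCm38.p6; probe sets with several genes were not named. The deposited table names no genome build, so coordinates are those of RefSeq. Depth does not apply to arrays: the number of arrays limits the precision, and a floor of 2.3 what can be measured.

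limma 3.58.1 in R 4.3.3 fitted 4 group means over all 23 arrays with no covariates (lmFit, contrasts.fit, eBayes), for 7 comparisons with two-sided tests and Benjamini-Hochberg adjusted p-values under 0.05 over all 12422 probe sets. No probe set was filtered out in that fit. The fit and the pair test were tested on simulated data. For the fit these had independent noise in each probe set, and for the pair test no groups and no means removed. They therefore do not show how the fit behaves with variation shared among probe sets, or the pair test with residuals. Pairs of members were compared by residuals from the group means with 100000 permutations. These ran over all arrays of a comparison, across groups, with no allowance for the means removed. Arrays were said to stand apart where their score on the first principal component of residuals lay more than 3.5 median absolute deviations from the median. All 253 pairs of arrays differed (smallest mean absolute difference 0.0738). The labels do not say how animals were shared among pools, so the tests reflect variation among pools, which may be in part technical.

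The members and lists were chosen with earlier results of these data known. Named genes were all members, from each list the gene with the smallest p in the line difference when none passed, and for each member the gene with the highest r; other genes (Mobp, Rnd2, Top1, and the closest genes over 20 arrays) were named after their values were seen. Lists used the brightest probe set of each gene. Alternatives were quantile normalization, median centring, leaving out probe sets at the floor, 1 probe set a gene, eBayes with trend and robust, chip lot, age, replicate blocks, only the groups compared, and leaving out arrays. The chip lot of a single array was joined to the lot whose number differs from it in 1 digit.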

Additional observations from a re-analysis of the deposited data

Results flagged for a closer look

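Among 32 groups of values tested for a far sample (8 genes in 4 groups), 2 had one, and chance alone gives about 1 in 20. Coa3 in LMACT MA replicate 2 was the lowest of its 5 pools at 7.71, and the next value was 8.77. This pool also had the lowest Nfu1, Pih1d1 and Pttg1 values of all LMACT pools. Nnat in HMACT SAL replicate 3, an array that stands apart, was the highest of its 6 pools at 10.70, and the next value was 8.33.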

How the results depend on the processing

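Line differences of the 8 genes kept their sign under every alternative run; that of Blcap after MA was 0.79 in the lot of 15 arrays, and that of Pih1d1 after MA 0.53 in pools under 100 days. For the number of probe sets called in the line difference as a mean (17), quantile normalization gave 30 (19 higher, 11 lower), leaving out probe sets at the floor 32, the lot of 15 arrays 1, age as a covariate 2, pools under 100 days 0 and leaving out the arrays that stand apart 86. Leaving out 1 array gave 7 to 55, with 7 without LMACT SAL replicate 1 and 55 without LMACT MA replicate 4. After SAL (1 called) the count was 0 with 1 probe set a gene, in the lot of 15 arrays and in pools under 100 days, and 0 to 3 without 1 array. After MA (0 called) it was 3 in pools under 100 days, 10 without the arrays that stand apart and 0 to 5 without 1 array. For MA minus SAL as a mean (2 called) it was 0 in the lot of 15 arrays, 1 in pools under 100 days, 5 without the arrays that stand apart and 1 to 4 without 1 array. In HMACT (1 called) it was 0 in the lot of 15 arrays, 2 in pools under 100 days, 0 when only HMACT arrays were fitted and 1 to 2 without 1 array. In LMACT (0 called) it was 2 without the arrays that stand apart, 1 when only LMACT arrays were fitted and 0 to 2 without 1 array. The interaction had 0 calls under all of them. Of pairs of members, 0 passed in the lot of 15 arrays and 2 with all arrays. No member was called in any MA minus SAL comparison or in the interaction under any setting.

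Signs of small MA differences turned. In the lot of 15 arrays the mean difference was 0.0568 for Coa3 and 0.0003 for Blcap. That in HMACT was 0.0583 for Pttg1, 0.17 for Pih1d1 and 0.20 for Blcap, that of Med1 in LMACT 0.0006, and the interaction of Pttg1 0.0097. In pools under 100 days the mean difference was -0.0823 for Pttg1 and -0.0699 for Med1, that in HMACT -0.0052 for Snx14 and 0.22 for Nnat, and the interaction of Blcap was -0.14. Without the arrays that stand apart the mean was -0.0018 for Pttg1 and -0.0175 for Med1, and that of Nnat in HMACT 0.34. Leaving out 1 array, the mean ran from -0.22 to 0.0322 for Coa3, -0.0945 to 0.15 for Pttg1 and -0.0427 to 0.0883 for Med1. In HMACT it ran from -0.22 to 0.12 for Pttg1, -0.011 to 0.25 for Med1, -0.35 to 0.0953 for Pih1d1, -0.24 to 0.38 for Nnat and -0.11 to 0.0281 for Blcap. In LMACT it ran from -0.11 to 0.37 for Pttg1. The interaction ran from -0.45 to 0.0399 for Pttg1 and -0.0095 to 0.17 for Blcap. The cause was not tested.

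Groups share replicate numbers, but the correlation of same-numbered pools within a line ran from -0.605 to 0.871 over 11 pairs, 8 were above 0.1 and 2 pools matched their own number best, so the numbers were not taken to pair the samples, although same-numbered pools of a line shared a chip lot in 10 of the 11 pairs and had the same mean age in 3. With a fixed replicate block 1 probe set was called for the mean MA difference and 0 in HMACT, and the mean difference of Pttg1 was -0.0213. A random replicate block (correlation 0.085) gave 16 calls for the line difference. The block changed no call of a member in the MA minus SAL comparisons or in the interaction. With 5 or 6 arrays a group and 4124 probe sets at the floor, small changes and low genes could not be measured.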
